A study of Ovis aries with 6 samples.

Results

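Unmethylated regions (UMRs) that were wider in lambs than in fetuses were described in sheep perirenal adipose tissue, the fat around the kidney. The authors deposited 1 list of UMRs per stage. A lamb UMR belonged to the set when it overlapped exactly 1 fetal UMR by at least 1 base, that fetal UMR overlapped no other lamb UMR, and the lamb length divided by the fetal length was above 1.5. The set held 379 of the 21199 autosomal lamb UMRs, or 1.79%, and 1.94% of the 19512 UMRs that could be paired 1 to 1. For comparison, 466 pairs were narrower in lambs by the same factor, and 18667 lay between and are called stable here. The sources used here do not say how these lists were called.

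The animals were 6 wild-type, pure-bred Merino sheep without treatment. The 3 fetuses, at 132 days of a gestation with term at 150, carry the label of brown fat, the kind that makes heat around birth. The 3 lambs are labelled 89 days old, while the series design text gives 80 days, and carry the label of white fat, the kind that stores energy. Each sample is a separate animal, and sex is not in the labels. The sample descriptions end in TV for fetuses and in VEH for lambs, so the meaning of these tags, which the labels do not give, is confounded with stage and cannot be told apart from it. The identity of the tissue rests on the labels, since methylation reads hold no expression markers, and the samples are bulk tissue, so a change in the mix of cells and a change within cells cannot be told apart.

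In mammalian genomes most CpG sites, cytosines followed by guanine, carry a methyl group. UMRs are stretches that escape this; many lie over CpG-rich promoters, where transcription factors and an unmethylated-CpG-binding protein complex keep the methylating enzymes away. Low-methylated regions (LMRs) are shorter and poorer in CpGs, have intermediate levels and often lie at distal regulatory elements. The edge of a UMR, where methylation climbs from near absent to near complete, is called its shore, and shores are known to vary between tissues and developmental stages.

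In these lists the 2 kinds of region are parted by their CpG number. Every autosomal UMR held at least 30 CpGs and every LMR from 5 to 29, in the lists of both stages. The median fetal UMR of the set was 1441 bases long (quartiles 943 and 2130.5), and the median lamb UMR 2672 bases (quartiles 1733 and 3878). The ratio of lengths had a median of 1.71 and a highest value of 5.27. It was above 2 in 89 members and above 3 in 16, and 100 members lay between 1.5 and 1.6. A further 145 pairs just outside the rule had a ratio between 1.4 and 1.5.

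**Figure D1:**
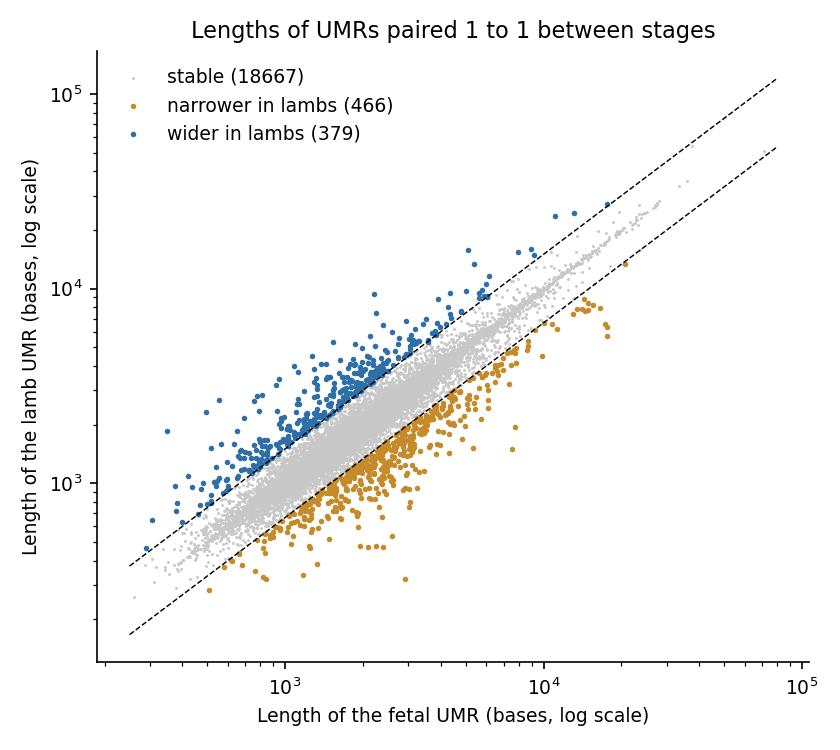
Each point is 1 pair of UMRs, with the fetal length on the horizontal and the lamb length on the vertical axis, both in bases on log scales; dashed lines mark a factor of 1.5 in either direction. The 379 members lie above the upper line and the 466 narrower UMRs below the lower one, with members from 289 to 17615 bases in fetuses and narrower UMRs from 509 to 20663.

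Widening was usually at 1 end. In 287 members, or 75.7%, at least 90% of the added bases lay at a single end, and in 139 members the other end was at the same base in both stages. The lamb UMR reached past the fetal one at both ends in 168 members, and in 72 members 1 end was drawn in while the other went out. The set was spread over lengths: by the geometric mean of the 2 lengths it made up 2.40% of pairs under 1000 bases, 1.596% of those from 1000 to 2000, 2.05% of those from 2000 to 4000 and 2.58% of those of 4000 bases or more. Members were found on each of the 26 autosomes. Chromosome 10 had the highest share, with 14 of 421 pairs (3.33%), and chromosome 22 the lowest, with 1 of 408 (0.245%). Within 5 Mb of the last listed CpG of a chromosome lay 13.2% of members, 11.6% of stable and 17.2% of narrower UMRs.

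The added stretches were long in bases and short in CpGs. The part listed for lambs alone, called the lamb-only part here, covered a median of 1116 bases and 15 CpGs, while the shared core, listed in both stages, covered 1409 bases and 49 CpGs. Over all members the core held 3.48 CpGs per 100 bases and the lamb-only part 1.19. The density was lower in the lamb-only part than in the core in 348 of the 379 members, and at less than 0.5 times it in 252. For comparison, the 500 bases beyond each end held 1.76 CpGs per 100 bases, all CpGs counted, so with all bases pooled the lamb-only parts were poorer in CpGs than the flanks beyond them. By median over members the lamb-only part held 1.23 and the flank 1.5.

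Counted in CpGs, the widening was smaller than in bases. The lamb UMR held a median of 1.26 times as many CpGs as the fetal one (quartiles 1.125 and 1.5), and 93 of the 379 members exceeded 1.5 by that count. In 48 members the lamb-only part held at most 5 CpGs, and in 112 at most 10. In the lists as a whole 114 pairs exceeded 1.5 in CpGs, and the 93 members were among them.

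Whole-genome bisulfite sequencing gives, at each CpG, the number of reads that still show C, which were methylated, and the number that cover the site. CpGs entered with 5 or more reads in every animal, a minimum met by 6163112 of 24936679 autosomal CpGs (24.7%). Reads on autosomal CpGs ranged from 130191752 in lamb 2 to 199480893 in lamb 1, counting a read once at each CpG it covers, and the mean per CpG from 5.22 to 8.00. Coverage of the lamb-only parts relative to the animal's autosomal mean was 0.915 to 0.985 in fetuses and 0.856 to 0.892 in lambs, and in the cores 0.953 to 1.05 and 0.892 to 0.970. The part of this gap in the results was not tested. Of the 379 members, 312 had at least 3 usable CpGs in the core, 182 in the lamb-only part and 159 in both; 14 had none in either.

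The lamb-only parts had intermediate methylation in both stages, and in lambs they were far from unmethylated. Summed over 1538 usable CpGs, their level was 41.5%, 41.7% and 41.2% in fetuses 1 to 3 and 35.9%, 36.1% and 36.8% in lambs 1 to 3. Every lamb was below every fetus. The mean was 41.5% ± 0.252 in fetuses and 36.3% ± 0.492 in lambs (SD, n = 3 each), so that the lambs stood at -5.18 percentage points from the fetuses. These bases were chosen because the lamb list included them and the fetal list did not, and both lists were made from these animals. The direction is therefore built in, and the values are a description without a test. Single CpGs showed the same: with reads pooled within a stage, 19.5% of them were under 20% methylated in fetuses and 22.4% in lambs, while 75.7% and 74.8% lay between 20% and 80%. A drop of 20 points or more was found at 17.1% of these CpGs and a rise of that size at 2.02%.

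The shared cores were low in both stages. Over 4894 usable CpGs their level was 12.5%, 11.5% and 12.1% in fetuses 1 to 3 and 11.8%, 11.6% and 11.3% in lambs 1 to 3. The stages overlapped. The means were 12.1% ± 0.511 and 11.5% ± 0.216 (SD, n = 3 each), a difference of -0.517 points (exact permutation test, two-sided, p = 0.3). With 3 animals against 3 this test cannot go below 0.1, here and below. The difference was -0.278 points without fetus 1 and -0.786 without fetus 2, and without the CpGs of very high coverage described below it was -0.200 (exact permutation p = 0.8). Cores of stable UMRs were lower, at 8.27% ± 0.162 in fetuses and 8.45% ± 0.141 in lambs. The stage difference of the members' cores minus that of the stable cores was -0.704 points (exact permutation test over each animal's difference between the sets, two-sided, p = 0.2). That contrast was -0.763 and -0.678 with minimums of 3 and 1 reads and -0.474 without the high-coverage CpGs (exact permutation p = 0.1 for each). With a length ratio above 2 it was -0.207 points (exact permutation p = 0.9). Against the cores of narrower UMRs, which were at 12.5% ± 0.435 and 13.7% ± 0.190 (SD, n = 3 each), the stage difference was -1.65 points (exact permutation p = 0.1), with no overlap between the animals of the stages. The cores border the bases by which both sets were chosen, so this contrast is not free of the rule.

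**Figure D2:**
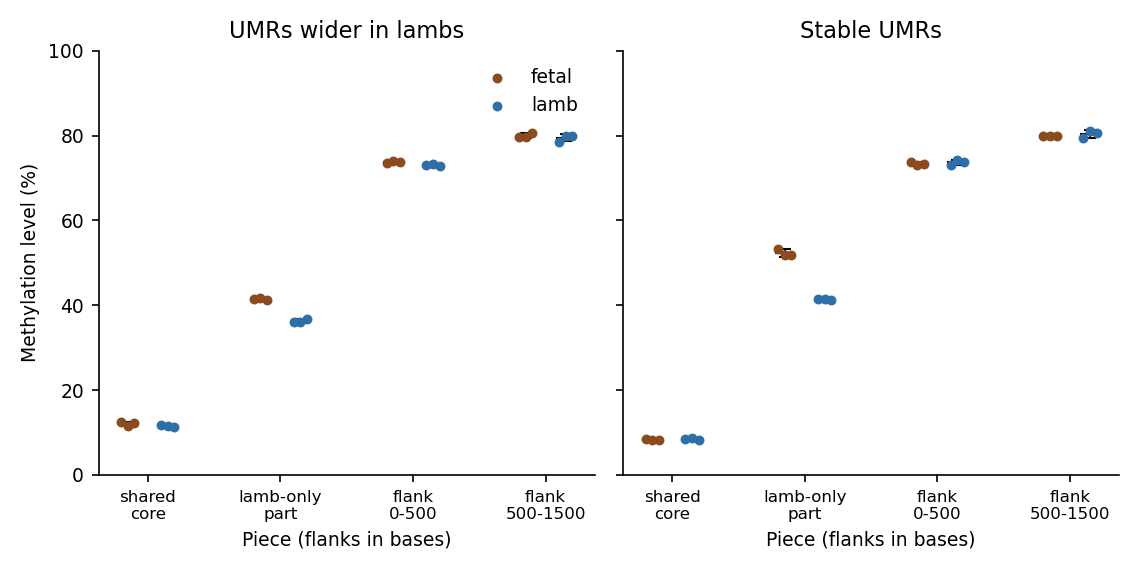
Methylation level in percent for each animal (points; bars give the mean and SD of 3 animals) in the shared core, the lamb-only part and the flanks at 0 to 500 and 500 to 1500 bases, for the 379 members on the left and the 18667 stable UMRs on the right. The lamb-only part stands between core and flank in both stages, at 41.5% in fetuses and 36.3% in lambs, and the members' other pieces differ by under 1 point between the stages.

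Beyond the lamb UMR the level was high in both stages. In the 500 bases outside either UMR, leaving out CpGs in any listed UMR or LMR, it was 73.5%, 73.9% and 73.9% in fetuses 1 to 3 and 73.1%, 73.3% and 72.9% in lambs 1 to 3. Each lamb was below each fetus, and the means differed by -0.686 points (exact permutation p = 0.1, the smallest value possible), but with a length ratio above 2 the difference was 0.00379 points (exact permutation p = 1). These flanks border the lamb list. From 500 to 1500 bases the levels were 80.0% ± 0.560 and 79.5% ± 0.821 (SD, n = 3 each), a difference of -0.481 points (exact permutation p = 0.6), which was -0.00813 without lamb 1 and -0.158 without fetus 3. Stable UMRs had 73.4% ± 0.338 and 73.7% ± 0.621 in the nearer flank, and the members' stage difference there was -0.982 points from theirs (exact permutation p = 0.2). In the farther flank stable UMRs had 79.9% ± 0.0750 and 80.4% ± 0.856 (SD, n = 3 each). The members' stage difference there was -0.964 points from theirs (exact permutation p = 0.1, the smallest value possible), with no overlap between the stages. Against narrower UMRs the contrast was -1.70 points in each flank (exact permutation p = 0.1 for both). These contrasts were not run leaving out single animals.

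Averaged by distance, the widened ends rose less steeply past the fetal UMR end than stable ends and then stayed at intermediate levels. Ends that moved out by at least 200 bases, 428 in all, were lined up on the fetal UMR end. From the last 100 bases inside to the first 100 bases outside, the level climbed from 33.8% ± 3.02 to 50.8% ± 0.697 in fetuses and from 29.5% ± 2.04 to 42.1% ± 1.26 in lambs (SD, n = 3 each). At stable UMRs the same step went from 29.9% ± 0.867 to 63.4% ± 0.712 in fetuses and from 31.4% ± 0.394 to 62.1% ± 0.459 in lambs. The level then stayed between 42.4% and 50.8% in fetuses, and between 40.6% and 45.8% in lambs, up to 800 bases out. At stable ends it was at 75.1% in fetuses by 300 to 400 bases. The gap between the stages was largest in the first 200 bases, at -8.67 and -8.76 points, and from 400 to 1000 bases it lay between -2.56 and 0.704 points. The fetal end defines the starting line, and the bases just outside it were listed for lambs. The step at that line, the gap between the stages beside it and the low stretch beyond it are therefore fixed in part by the rule. The ends do not widen to the same distance, so bins further out mix lamb-only bases with bases beyond the lamb UMR. Within the lamb-only parts, divided into equal steps below, the level was lower in the last step than in the first in both stages.

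**Figure D3:**
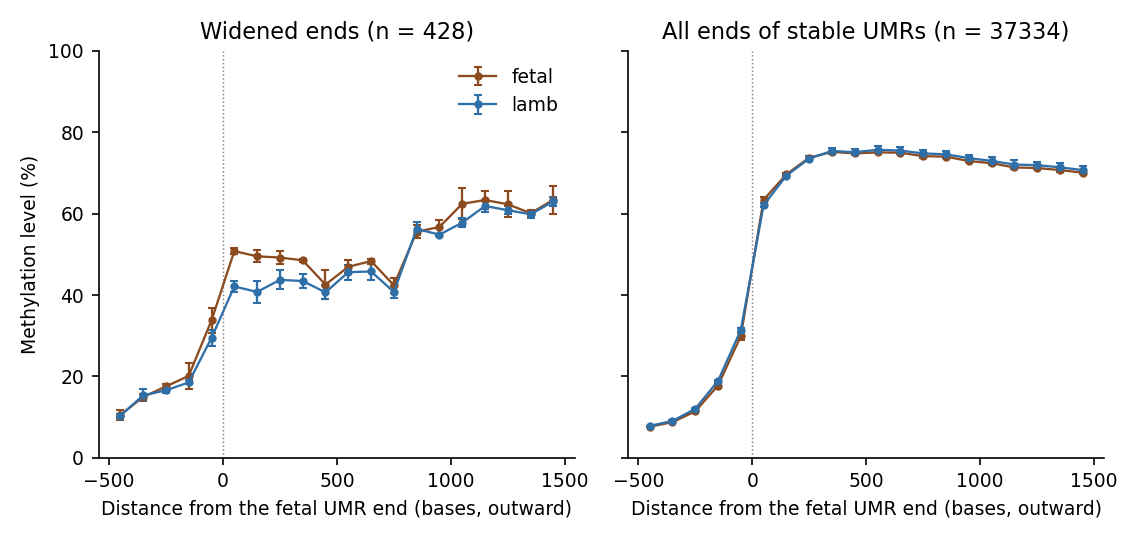
Methylation level in percent against distance from the fetal UMR end in bases, negative inside and positive outward, in bins of 100 bases; points are means and bars the SD of 3 animals per stage. At the 428 widened ends on the left the fetal curve levels off near 50% and the lamb curve near 42% just outside the fetal end, while at the 37334 ends of stable UMRs on the right both curves pass 60% in the first 100 bases.

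In 160 of the 379 members, or 42.2%, the lamb-only part took in a region that the fetal list gives separately as an LMR. In these members 1 lamb UMR spans a fetal UMR, the bases beside it and a fetal LMR, and in 12 of them at least 2 fetal LMRs. The fetal LMR lay a median of 386 bases from the fetal UMR end (quartiles 191 and 678). Fetal LMRs made up 22.3% of all lamb-only bases. The mirror set was alike in this: 194 of the 466 narrower UMRs, or 41.6%, had a lamb LMR in the part listed for fetuses alone. A lamb-only part with a fetal LMR was present in 229 of the 18667 stable UMRs, or 1.23%, most of which had little or no lamb-only part to hold one.

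In these 160 members the lamb-only bases were split into those inside and those outside the fetal LMRs; the latter include bases beyond an LMR and at the other end of the UMR. Inside the fetal LMRs, over 611 usable CpGs, the level was 27.4%, 28.5% and 26.2% in fetuses 1 to 3 and 25.98%, 26.2% and 27.8% in lambs 1 to 3. The stages overlapped there, with means of 27.4% ± 1.14 and 26.7% ± 0.973 (SD, n = 3 each) and a difference of -0.713 points. Leaving out 1 animal moved it from -0.143 without fetus 2 and -0.370 without lamb 1 to -1.27 without lamb 3 and -1.28 without fetus 3. In the rest of the lamb-only part, over 513 usable CpGs, the level was 52.6%, 52.6% and 53.0% in fetuses and 44.9%, 44.2% and 45.6% in lambs. There the means were 52.8% ± 0.252 and 44.9% ± 0.705, a difference of -7.85 points. Both pieces were split by the fetal list, the LMRs as low in fetuses and the rest as not listed there, so a larger difference outside the LMRs is built in and nothing is read from it. The cores of these members were at 16.2% ± 0.713 and 15.7% ± 0.299, a difference of -0.455 points (exact permutation p = 0.4). Without the CpGs of very high coverage described below, that core difference was 0.00927 points.

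Over the whole lamb-only part the 160 members with a fetal LMR were at 38.5% ± 0.608 and 34.6% ± 0.776 (SD, n = 3 each), a difference of -3.84 points. In the 219 members without a fetal LMR the level was 52.0%, 49.8% and 52.2% in fetuses 1 to 3 and 41.9%, 41.3% and 40.6% in lambs 1 to 3, a difference of -10.1 points between means of 51.3% ± 1.305 and 41.3% ± 0.633 (SD, n = 3 each). Splitting by a fetal LMR, bases already low in fetuses, builds in a smaller difference for the members that hold one. Lamb-only stretches at the edges of stable UMRs, chosen in the same way, were at 52.3% ± 0.871 and 41.4% ± 0.0955, a difference of -10.9 points. The cores of these 219 members were at 8.36% ± 0.317 and 8.15% ± 0.0960 (exact permutation p = 0.3). By length they were widened less, with a median ratio of 1.66 against 1.80 in members with a fetal LMR.

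**Figure D4:**
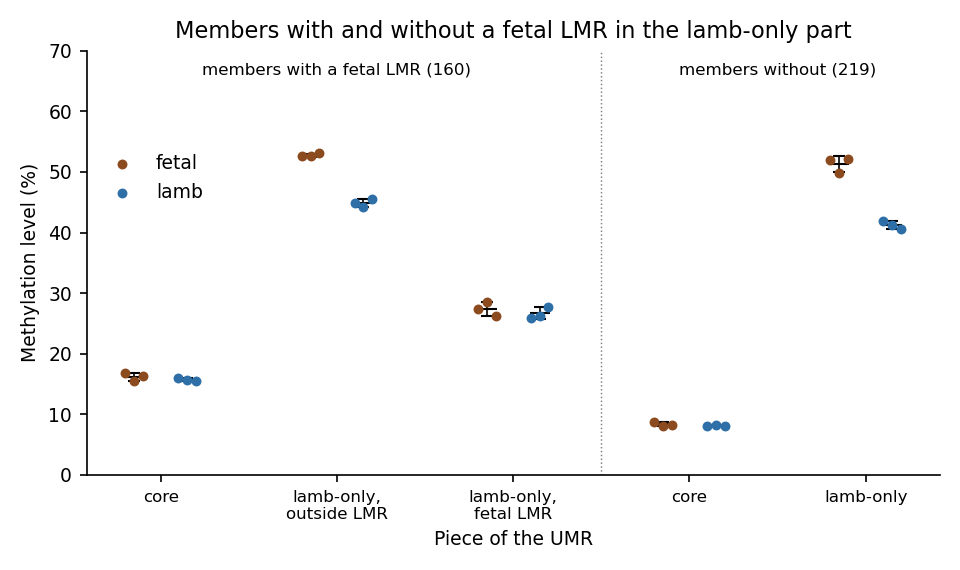
Methylation level in percent for each animal (points; bars give the mean and SD of 3 animals) in the core and in pieces of the lamb-only part, for the 160 members with a fetal LMR on the left of the dotted line and the 219 members without on the right. Fetuses and lambs overlap inside the fetal LMRs, at 27.4% and 26.7%, and stand apart in the other lamb-only pieces.

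Along the lamb-only part the level was lower at the outer end than next to the core, both with and without a fetal LMR. Each end that moved by at least 200 bases was divided into 5 equal steps from the core outward. At the 162 ends with a fetal LMR the fetal level went from 48.7% ± 0.0874 in step 1, next to the core, to 26.7% ± 1.00 in step 4, and the lamb level from 41.5% ± 2.97 to 24.0% ± 1.27 (SD, n = 3 each). The stage difference was -7.19 points in step 1 and between -2.70 and -0.806 points in the other steps. At the 266 ends without a fetal LMR the fetal level went from 56.6% ± 2.44 in step 1 to 42.9% ± 1.104 in step 5, and the lamb level from 44.6% ± 0.595 to 37.7% ± 1.31. There the difference was -12.0, -12.6 and -13.0 points in steps 1 to 3 and -8.15 and -5.20 in steps 4 and 5. The ends were sorted by the fetal LMR list. A lower fetal level and a smaller stage difference where an LMR lies are therefore built in. Nothing is read from the contrast between the kinds of end. At ends with a fetal LMR every fetus was highest in step 1, and so was lamb 3. Lambs 1 and 2 were at 40.6% and 39.1% in step 1 and slightly higher in step 2, at 40.9% and 39.4%. At ends without, steps 1 and 2 did not differ beyond their spread, at 56.6% ± 2.44 and 56.4% ± 3.34 in fetuses. Fetuses 1 and 3 were highest in step 1 there too, and fetus 2 in step 2. Each step rested on 59 to 294 usable CpGs. The ends with a fetal LMR include the member of very high coverage described next, and the steps were not recomputed without it.

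The lamb-only part of 1 member held 11.3% of the reads at the usable CpGs of such parts. It lies on chromosome 21 from 46488116 to 46490418, was chosen after its values were seen, and had a mean of 1688.5 reads per animal over 24 usable CpGs, where the median was 51.8 reads over the 182 parts with at least 3 usable CpGs. Its lamb-only part was at 31.4%, 33.5% and 32.5% in fetuses 1 to 3 and at 31.5%, 32.4% and 38.7% in lambs 1 to 3. The stages overlapped, and its core was at 26.5% ± 0.865 and 26.6% ± 1.602. CpGs whose reads, summed over the animals, exceeded 3 times the autosomal median of 41 lay, within the set, in this member alone. Without them the lamb-only difference was -6.13 points instead of -5.18, and outside the fetal LMRs it was -9.43 points instead of -7.85.

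Single lamb-only parts varied widely. Among the 182 with at least 3 usable CpGs the difference between the stages had a median of -5.53 points and quartiles of -12.0 and -0.370, and ran from -34.6 to 8.74. Animals of the same stage spread by 7.08 points (median SD), over a median of 6 usable CpGs per part. The lamb mean was lower in 140 of them and higher in 42. A difference of -10 points or lower was found in 59, and of -20 points or lower in 12. Over the 900 lamb-only parts of all pairs, members included, these shares were 46.8% and 11.4%. Every lamb was below every fetus in 43 of the 182, where the background over all 900 was 23.3%, and every lamb was above every fetus in 3, against 0.667%. Over all 20255 pieces defined below, most of them cores, these shares were 5.28% and 7.57%. In 48 of the 182 lamb-only parts of members the fetal mean was above 50% and the lamb mean at or below it. In 15 both were above 50%, and in 10 the lamb mean was under 20%. Among the 711 lamb-only parts of stable UMRs these counts were 329, 58 and 12. As the rule used these bases, nothing is read from the counts.

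**Figure D5:**
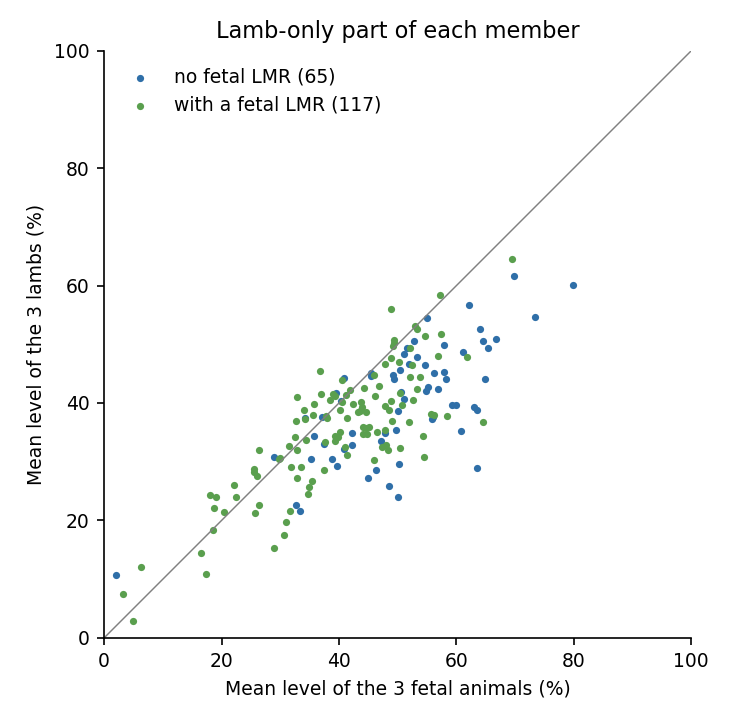
Each point is the lamb-only part of 1 of the 182 members with at least 3 usable CpGs there, with the mean level of 3 fetuses on the horizontal and of 3 lambs on the vertical axis, in percent; the line marks equal levels. Of the points 140 lie below the line and 42 above it, and the median levels in fetuses and lambs are 41.4% and 36.97% for the 117 parts with a fetal LMR and 51.1% and 40.6% for the 65 without.

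No piece of a member could be called different. Cores, lamb-only parts and fetal-only parts of all pairs, 20255 pieces in all, were tested for lamb against fetal in a quasi-binomial model whose dispersions were moderated by limma. A call needed a Benjamini-Hochberg adjusted p under 0.05 together with a change of 10 points or more, and 0 pieces met this in either direction, which is 0% of members and of all pieces alike. Among the lamb-only parts of members the smallest adjusted p was 0.439 in this limma-moderated test. An unadjusted p under 0.05 was found for 36 of the 182 lamb-only parts (19.8%), against 18.6% of the 900 lamb-only parts of all pairs and 8.07% of all pieces; limma's own test gave 28 and edgeR 26, each with 0 adjusted calls. Among the cores of members it was found for 11 of 312 (3.53%), against 6.65% of 18155 cores of all pairs, with 20 for limma and 13 for edgeR and again 0 adjusted calls. The median difference in the members' cores was -0.336 points, and in the cores of stable UMRs 0.199. Every lamb was below every fetus in 20 of the members' cores and above in 17, against 4.71% and 6.78% of the cores of all pairs.

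The longest lamb-only parts, among members with at least 3 usable CpGs in both pieces, overlapped between the stages in all but 1 of the 6 named here. On chromosome 12 the lamb UMR from 48378574 to 48387917 covers a fetal UMR from 48379756 to 48381955, which makes it 4.25 times as long. Of its 7144 lamb-only bases 6277 are fetal LMR. The lamb-only level was 43.2%, 42.7% and 39.9% in fetuses 1 to 3 and 43.3%, 43.2% and 40% in lambs 1 to 3, while the core was at 3.21% ± 0.953 and 2.12% ± 0.901 (SD, n = 3 each). The stages overlapped in both pieces. On chromosome 7 the lamb UMR from 42456140 to 42462661 shares its lower end with the fetal UMR, which ends at 42458537, and adds 4124 bases. Over 23 usable CpGs these were at 38.5%, 46.3% and 42.2% in fetuses and 39.7%, 40.5% and 39.2% in lambs, again with overlap.

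The other 4 of these 6 were on chromosomes 2, 25, 1 and 5. On chromosome 2 the 3922 added bases of the lamb UMR from 150100215 to 150107066 were at 40.9% ± 5.94 and 44.2% ± 1.51, over 3 usable CpGs. On chromosome 25, from 2640722 to 2650236, the levels were 46.2% ± 1.604 and 41.1% ± 17.9, with lamb 1 at 61.3% and lamb 2 at 27.3%. On chromosome 1, from 24274533 to 24279040, they were 28.96% ± 5.70 and 30.7% ± 12.9. The exception was chromosome 5 from 49573674 to 49582820, where fetuses 1 to 3 were at 71.8%, 59.5% and 62.2% and lambs 1 to 3 at 49.3%, 52.2% and 50%, without overlap. In that member the core was not low either, at 40.5% ± 1.65 and 34.2% ± 2.56 (SD, n = 3 each), and held 39 CpGs in 5902 bases. The 3 longest lamb-only parts of the whole set, 2 on chromosome 20 and 1 on chromosome 25, had 0 or 1 usable CpGs, and no level is given for them.

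The authors' differentially methylated regions (DMRs) touched few members. Of 496 autosomal regions on the hypo list, which is read here as lower in lambs, at least 1 lay in the lamb-only part of 16 members, or 4.22%. For stable UMRs, whose median lamb-only length is 0 bases, it was 116 of 18667, or 0.621%, and only 8018 of these had any lamb-only bases. Lamb-only bases summed to 601342 in members and 1606913 in stable UMRs, so the shares are not per base and no enrichment is read from them. A region of the hyper list lay in no lamb-only part of a member, and in the fetal-only part of 13 of the 466 narrower UMRs. DMRs and UMRs come from the same animals, so these overlaps are not independent of the rule.

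Among members with a DMR in the lamb-only part and at least 3 usable CpGs in both pieces, the difference of greatest size was on chromosome 11 from 42208136 to 42209656. The fetal UMR there ends at 42208991, and the 665 added bases hold 5 CpGs. Over 4 of them the level was 74.4%, 75% and 41.2% in fetuses 1 to 3 and 38.5%, 27.6% and 20.7% in lambs 1 to 3, so fetus 3 stood close to lamb 1. The core, over 17 usable CpGs, was at 12.3% ± 2.95 and 9.37% ± 4.60 (SD, n = 3 each). On chromosome 3 from 180436378 to 180438274 both ends moved out. Over 13 usable CpGs the lamb-only level was 59.8%, 63.5% and 54.1% in fetuses and 41.8%, 44.6% and 32.6% in lambs. All lambs were below all fetuses there, also in the core, at 13.8% ± 3.26 and 5.01% ± 1.82 over 7 usable CpGs.

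Of the 11 such members, these and the next 4 by difference are named; the other 5 ranged from -14.7 points, on chromosome 3 from 220548302, to 0.122, on chromosome 3 from 134241388. The next 4 had differences from -20.5 to -17.8 points. On chromosome 14 from 4976152 to 4977539 lambs 1 and 2 were at 18.6% and 14.9% and lamb 3 at 55.4%, within the range of the fetuses, which were at 48.4%, 44% and 58.2%. On chromosome 2 from 38909074 to 38915126, over 3 usable CpGs, the levels were 73.3% ± 4.21 and 54.7% ± 12.7, beside a core of 204 CpGs at 2.06% ± 0.743 and 1.14% ± 0.677. On chromosome 11 from 18091640 to 18094954 they were 50.5% ± 8.97 and 32.3% ± 11.004, and on chromosome 25 from 27852953 to 27855250 they were 44.97% ± 1.66 and 27.2% ± 7.95 (SD, n = 3 each).

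Outside the DMR lists, the 3 members with the lowest differences among those with every lamb below every fetus and at least 3 usable CpGs in both pieces were chosen after their values were seen. The next, on chromosome 3 from 13636640, was at -23.6 points. On chromosome 25 from 14960313 to 14963646, over 6 usable CpGs, fetuses 1 to 3 were at 60%, 62.2% and 60% and lambs 1 to 3 at 32.8%, 38.1% and 34.9%. The lambs were lower in these 1519 added bases, while the core was at 1.58% ± 0.809 and 4.83% ± 2.29. On chromosome 12 from 2975450 to 2977646 the added bases were at 63.5% ± 6.36 and 38.8% ± 13.7, and on chromosome 14 from 41201474 to 41202442 at 63.05% ± 15.1 and 39.4% ± 8.97 (SD, n = 3 each).

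In 3 members the lamb-only part was higher in each lamb than in each fetus, against its listing. All 3 held a fetal LMR. On chromosome 15 from 73301046 to 73303898, over 12 usable CpGs of 26, the level was 37.7%, 38.3% and 34.1% in fetuses 1 to 3 and 47.8%, 43.4% and 45.1% in lambs 1 to 3. On chromosome 9 from 34818540 to 34820671 both stages were low, at 1.47%, 3.85% and 4.05% in fetuses and 7.53%, 10.7% and 4.41% in lambs, so these bases were nearly unmethylated in fetuses without being part of the fetal UMR. On chromosome 11 from 53605592 to 53610050 the levels were 25.5% ± 0.689 and 28.8% ± 2.14 (SD, n = 3 each).

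DNA methylation valleys (DMVs), which are very broad unmethylated domains found around genes of developmental regulators, were rare in the set. A lamb DMV overlapped 2 members (0.528%), against 385 of 18667 stable UMRs (2.06%) and 1 of 466 narrower UMRs (0.215%). A fetal DMV also overlapped 2 members, in the lamb-only part of both, against 425 stable UMRs (2.28%) and 1 narrower UMR (0.215%). On chromosome 5 the member from 10815505 to 10823042 had a core of 315 CpGs at 2.81% ± 0.808 and 2.14% ± 0.197. A DMV of each stage overlapped this member, also in its lamb-only part. Its lamb-only part, with 2167 of 2767 bases in a fetal LMR, was at 57.4% ± 2.24 and 51.8% ± 2.45 (SD, n = 3 each), over 8 usable CpGs of 39, and the stages did not overlap. The other member with a lamb DMV, on chromosome 18, had 0 usable CpGs in its lamb-only part.

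The pairs nearest to the threshold varied in size and direction. With at least 3 usable CpGs in both pieces, the nearest members inside were on chromosome 12 from 19933655 to 19939398, at a ratio of 1.501 and lamb-only levels of 40.9% ± 4.30 and 32.2% ± 11.2, and on chromosome 15 from 17226112 to 17228572, at 1.51 and levels of 54.3% ± 14.4 and 34.3% ± 12.98. By the same minimum, the nearest outside were chromosome 14 from 13603383 to 13604698, at 1.497 and 42.2% ± 9.30 and 8.95% ± 6.34, and chromosome 7 from 73751446 to 73756166, at 1.497 and 36.3% ± 3.41 and 38.8% ± 5.40 (SD, n = 3 each).

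The mirror set was chosen by the same rule with the stages exchanged. In the fetal-only parts of the 466 narrower UMRs, over 2169 usable CpGs, the level was 36.7% ± 0.965 in fetuses and 45.2% ± 1.03 in lambs, a difference of 8.50 points (SD, n = 3 each). Inside the lamb LMRs of that set it was 27.8% ± 0.794 and 30.7% ± 1.23, and in the rest of the fetal-only part of the same UMRs 43.5% ± 1.38 and 55.4% ± 0.469. These pieces were split by the lists too, and no test is given.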

How the data were processed

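Genomic DNA of 6 animals was sequenced as whole-genome bisulfite libraries, 1 lane of paired 100-base reads each, per the labels' protocols. The series design text gives Oar_v3.1 as the genome reads were mapped to. The submitters' processing notes list hg19 and Oar_v3.1 as builds and BWA with Picard as tools, without roles, and which methylation caller was used is not stated there. The deposited table holds raw counts of methylated and covering reads per CpG and animal, and the region lists deposited by the authors hold positions alone. Positions are 1-based on Oar_v3.1. No genome or annotation of this build was used here, so regions are named by position.

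A level is the sum of methylated over covering reads, compared by exact permutation over animals. Per piece with at least 3 usable CpGs a quasi-binomial model was fitted, with the dispersion moderated as in limma's squeezeVar and not below 1. Benjamini-Hochberg adjustment was made over all pieces. The fit was also run on simulated reads with a single fixed spread between animals, and nothing is read from that run here. The counts varied by more than counting error: the common dispersion the fit moderated towards was 1.34, where counting error alone gives 1. PCR copies are not marked in the deposited counts, and whether they were removed is not stated. Regions were to be named when they had the longest lamb-only part (6), a call (up to 10, none met this), a DMR (6), a ratio nearest 1.5 (2 on each side), higher levels in all lambs (4) or a DMV (4); those added later are marked. The members, lists and tests were chosen with earlier results of these data known. Alternatives were read minimums of 1, 3 and 10, other ratios, leaving out each animal or CpGs of high coverage, equal weight per CpG, edgeR, limma (log2 ratio, pseudocount 1), at least 5 CpGs, 20 points and the replicate number as a block. Python 3.11.15, numpy 2.4.6, pandas 2.3.3, R 4.3.3, limma 3.58.1 and edgeR 4.0.16 were used.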

Additional observations from a re-analysis of the deposited data

How the results depend on the processing

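The count of 379 members was 89 with a ratio above 2, 775 with a ratio above 1.3 and, chosen after seeing the data, 114 by CpG count. The lamb-only difference of -5.18 points was -6.08 and -6.72 with minimums of 3 and 1 reads, -6.13 without high-coverage CpGs, -6.74 and -7.16 with ratios above 2 and 1.3, and -6.39 with equal weight per CpG. In lamb-only bases outside fetal LMRs, of members with one, where the alternatives were added after seeing the data, it was -9.83, -10.7 and -9.43 points with minimums of 3 and 1 reads and without high-coverage CpGs. The mirror difference of 8.50 points was 7.40 with a ratio above 2. A minimum of 10 reads left 36 lamb-only CpGs in 3 members, 87.9% of the reads in 1 of them, and turned the sign: 1.03 points in lamb-only parts, -1.46 in the mirror set, 0.0510 in cores, 0.869 in cores against stable UMRs, 7.46 and 0.126 in the near and far flanks. The far flank difference was 0.105 points with a minimum of 3 reads, and the near flank difference 0.00379 with a ratio above 2. Leaving out 1 animal turned no sign in these levels. Beyond the loss of CpGs given here, the cause was not tested. Adjusted calls in lamb-only parts and cores were 0 in each setting run, which with 3 animals per stage does not show that no region differs. Replicate numbers name separate animals: over 20255 pieces the deviations of equal numbers had correlations from -0.00377 to 0.0149, which does not pair them, and with the replicate block 0 pieces of members were called, with an unadjusted p under 0.05 in 14 lamb-only parts instead of 36.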

Other observations

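Among the 379 members 275 CpGs lay in bases that the fetal list holds and the lamb list does not, at ends that were drawn in while the other end went out. Over 68 usable CpGs in 31 members these bases were at 39.8% ± 2.80 in fetuses and 52.5% ± 1.70 in lambs (SD, n = 3 each), the opposite of the lamb-only parts of the same set. They were chosen through the lists too, and carry no test.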
